A study of Mus musculus with 2 samples.

Results

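Of 10 genes of the neuromuscular junction, 3 reached a level at which they counted as measured in fetal mouse palate. Of these, 1 was at least 2-fold lower on an array labelled as lacking Myf5 and MyoD than on a wild-type array. This was Chrna1, which encodes the acetylcholine receptor alpha subunit. Of all 11238 measured genes, 4.22% were at least 2-fold lower. Chrna1 counted as measured through the wild-type array alone, as did Dok7, another of the 3. The fold of Chrna1 depends on how low signals are treated. The genes described were the receptor subunits Chrna1, Chrnb1, Chrnd, Chrne and Chrng, the receptor-clustering genes Musk, Rapsn, Dok7 and Agrn, and Ache, which encodes acetylcholinesterase. They were taken as every probe set that the platform annotation assigns to exactly 1 of these genes, which gave 14 probe sets, out of 34945 probe sets of 18193 genes. Total RNA of palate was taken from fetuses aged E18.5 (embryonic days), with 1 array of BALB/c palate labelled null for both Myf5 and MyoD (gene symbol Myod1) and 1 array of BALB/c wild-type palate. The labels do not say whether an array was made from 1 fetus or a pool, nor what part of either gene was removed. With 1 array per genotype no test was possible, so each difference stands without a p-value.

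Skeletal muscle is activated where a motor nerve ending releases acetylcholine onto a dense patch of receptors in the muscle membrane. Agrin, secreted by the nerve, binds the co-receptor Lrp4 and activates the receptor kinase MuSK, which with its adaptor Dok7 drives rapsyn to gather the receptors, while acetylcholinesterase ends each signal by splitting the transmitter. The fetal receptor holds the gamma subunit, which the epsilon subunit replaces as muscle matures, and transcription of several subunit genes in muscle depends on myogenic basic helix-loop-helix factors such as MyoD and myogenin, which bind E-boxes.

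Upstream sequences of 4 of the genes are shown because these had a probe set above the low-signal floor on both arrays or passed 2-fold, and because E-boxes are the DNA letters that the factors missing by label recognise. They are the 200 bases before the RefSeq gene start on build GRCm38.p6, read 5′ to 3′, with each E-box (CANNTG) in capitals.
Chrna1, chr2:73580339-73580538, minus strand: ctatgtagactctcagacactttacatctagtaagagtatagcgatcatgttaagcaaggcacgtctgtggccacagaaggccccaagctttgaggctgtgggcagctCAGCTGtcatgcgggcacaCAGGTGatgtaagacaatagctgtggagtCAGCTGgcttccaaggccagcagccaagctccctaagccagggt
Chrnb1, chr11:69795938-69796137, minus strand: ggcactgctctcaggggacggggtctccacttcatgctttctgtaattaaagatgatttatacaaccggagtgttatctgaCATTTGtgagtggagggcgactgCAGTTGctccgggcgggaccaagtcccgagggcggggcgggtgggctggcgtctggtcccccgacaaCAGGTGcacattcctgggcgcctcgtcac
Dok7, chr5:35056566-35056765, plus strand: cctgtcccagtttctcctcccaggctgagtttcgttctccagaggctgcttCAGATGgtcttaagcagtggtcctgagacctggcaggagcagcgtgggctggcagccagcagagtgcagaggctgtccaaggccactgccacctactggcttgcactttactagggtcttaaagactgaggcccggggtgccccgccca
Agrn, chr4:156197489-156197688, minus strand: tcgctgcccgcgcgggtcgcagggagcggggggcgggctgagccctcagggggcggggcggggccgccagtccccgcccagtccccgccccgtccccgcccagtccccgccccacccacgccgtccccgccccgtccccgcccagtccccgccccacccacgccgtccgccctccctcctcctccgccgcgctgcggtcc

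RefSeq promoter windows, from 250 bases before to 50 after the gene start, were found for 8 of the 10 genes, in 10 windows. Chrnd and Rapsn had no entry. CANNTG, searched on both strands, occurred in at least 1 window of all 8 genes, and in 72.3% of all 32851 windows of the table. The letters CAGCTG, which are a subset of CANNTG, occurred in 4 of the 8 genes and in 16.3% of all windows. These counts are by gene, and Dok7 and Agrn had more than 1 window, whereas the shares are by window. CAGCTG began 92 and 44 bases before the start of Chrna1, with CAGGTG between the 2 matches at 73 bases. In Chrng, the fetal gamma subunit gene, CAGCTG began 155 and 132 bases before the start. Chrne, the adult epsilon subunit gene, had it at 138 bases and Musk at 68 bases. Chrnb1, which encodes the beta subunit, had 3 CANNTG matches and no CAGCTG, and Dok7 had 1 CANNTG in the window shown and none in its other window. The Agrn window shown held none, and the other Agrn window held 1, CAACTG. The N-box CCGGAA, a motif known for synapse-specific transcription, searched on both strands, was found in Chrne alone of the 8, 76 bases before the start, and in 14.9% of all windows. These matches describe letters only and do not show binding.

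The deposited values were linear signals, 1 per probe set, and are given here after scaling of the arrays to a common median. A signal below 287 (the 40th percentile over both arrays) was set to that floor before log2 was taken, and a fold against an array under the floor is a lower bound, written with "at least". A gene counted as measured where its brightest probe set reached 658, the 60th percentile, on either array. A log2 ratio is always that of the array labelled double null to the wild-type array. By this rule 3 of the 10 genes were measured (Chrna1, Dok7 and Agrn), against 61.8% of all genes with a probe set.

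**Figure D1:**
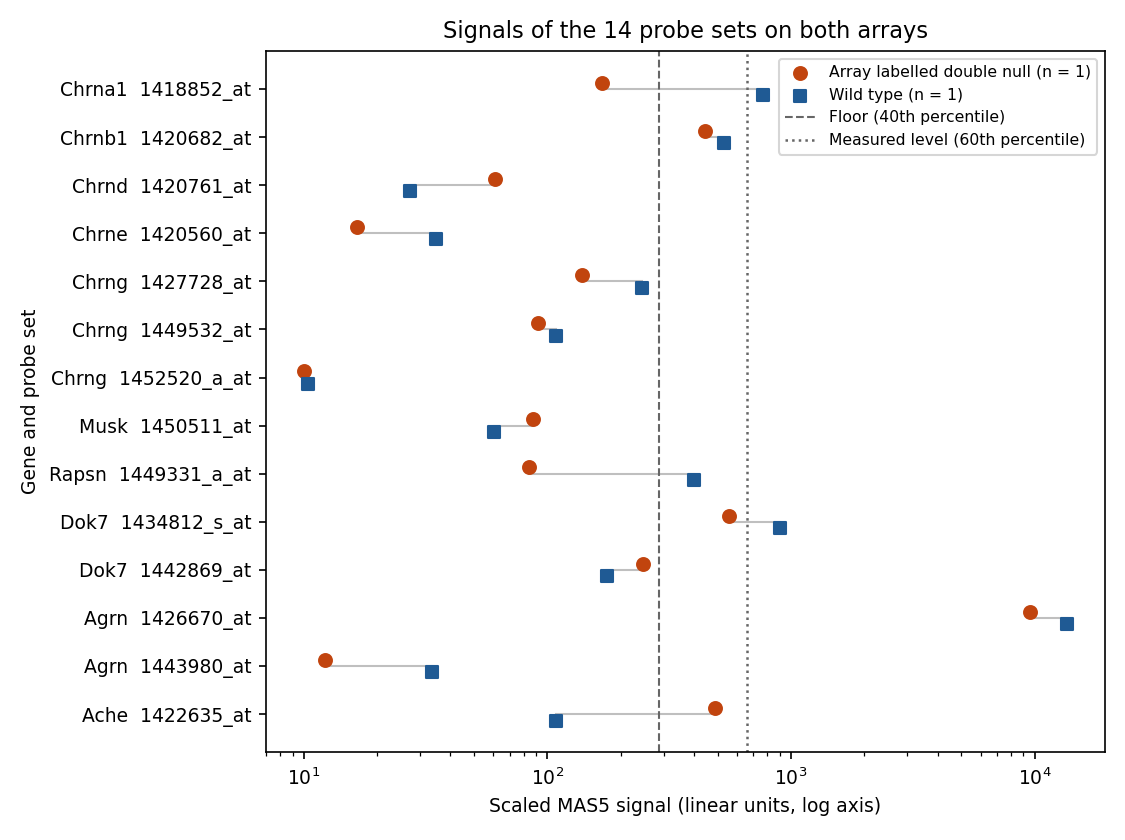
Scaled MAS5 signal (log axis) of each of the 14 probe sets. Circles are the array labelled double null and squares the wild-type array, 1 array each. The dashed line is the floor of 287 and the dotted line the measured level of 658; Chrna1 and Rapsn lie above the floor on the wild-type array alone, and Ache on the array labelled double null alone.

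Among receptor subunit genes, Chrna1, whose product carries the main part of the acetylcholine binding site, had a signal of 168 on the array labelled double null and 766 on the wild-type array. The first value lay under the floor, at the 26.7th percentile of its array, and the second at the 62.9th percentile. Chrna1 was therefore at least 2.67-fold lower, a log2 ratio of -1.42, by its only probe set. Among the 11238 measured genes, 4.22% were at least 2-fold lower, and the Chrna1 ratio lay at their 1.68th percentile. Chrna1 counted as measured through the wild-type array alone, and any gene at the measured level on 1 array and under the floor on the other is past 2-fold by construction. Of the 3317 measured genes whose brighter signal lay between the 60th and 75th percentiles, as that of Chrna1 did, 6.96% passed 2-fold downward and 80 (2.41%) were under the floor on the array labelled double null. Fewer muscle cells and less RNA per cell cannot be told apart in whole tissue.

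Chrnb1, the beta subunit gene, had 443 on the array labelled double null and 530.0 on the wild-type array. Both values were above the floor and below the measured level, and the log2 ratio of -0.26 became 0.06 under scaling to reference genes by their median signal. The difference was smaller than 0.51, the SD of log2 ratios between probe sets of the same gene.

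The other receptor subunits were under the floor on both arrays. Chrnd, the delta subunit gene, had 61.3 on the array labelled double null and 27.4 on the wild-type array. Chrne had 16.6 on the array labelled double null and 34.8 on the wild-type array. The brightest Chrng probe set, 1427728_at, had 139 on the array labelled double null and 245 on the wild-type array. These signals give no fold, and the order of the arrays differed between the genes. A dimmer Chrng probe set had 91.1 on the array labelled double null and 108 on the wild-type array, and the third Chrng probe set was dimmer still on both arrays. A signal under the floor does not show that the transcript was absent.

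Of the genes that cluster the receptor, Dok7, the cytoplasmic activator of MuSK, had 556 on the array labelled double null and 904 on the wild-type array by probe set 1434812_s_at. The log2 ratio was -0.70, or 1.63-fold lower, at the 8.86th percentile of measured genes and within 2-fold. Dok7 reached the measured level of 658 on the wild-type array alone, so its place among measured genes rests on the array where it was higher. Its other probe set, 1442869_at, was under the floor on both arrays, with 247 on the array labelled double null and 175 on the wild-type array. The suffix of the brighter Dok7 probe set marks probes that match several related transcripts, and without such probe sets Dok7 was not measured.

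Agrn, which encodes agrin, was bright on both arrays. Probe set 1426670_at had 9585 on the array labelled double null and 13528 on the wild-type array, at the 94.8th and 96.8th percentiles of those arrays. The log2 ratio was -0.50, or 1.41-fold lower, at the 14.3th percentile of measured genes and about the size of the SD of 0.51 between probe sets of a gene. The other Agrn probe set, 1443980_at, was far under the floor, with 12.3 on the array labelled double null and 33.7 on the wild-type array. Agrin is also made by many cells outside muscle and nerve, and these arrays do not show which cells gave the signal.

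Rapsn, which encodes the receptor-anchoring protein rapsyn, had 84.5 on the array labelled double null and 399 on the wild-type array. It was above the floor in wild type alone, at the 48.6th percentile of that array, and below the measured level. As a bound it was at least 1.39-fold lower, and the unfloored log2 ratio of -2.24 rests on a signal at the 16.8th percentile. Musk, the receptor kinase gene, was under the floor on both arrays, with 87.1 on the array labelled double null and 60.4 on the wild-type array.

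Ache went the other way, with 487 on the array labelled double null and 108 on the wild-type array. It was above the floor on the array labelled double null alone, at the 53.5th percentile, and below the measured level. As a bound it was at least 1.70-fold higher, and the unfloored log2 ratio of 2.17 rests on a signal at the 20.2th percentile of the wild-type array. No member was at least 2-fold higher among the 3 measured, against 3.51% of all measured genes. Over all 18193 genes, 4.55% were above the floor in wild type alone and 4.78% on the array labelled double null alone, and 20.9% on neither, the state of 4 of the 10 members (Chrnd, Chrne, Chrng and Musk).

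**Figure D2:**
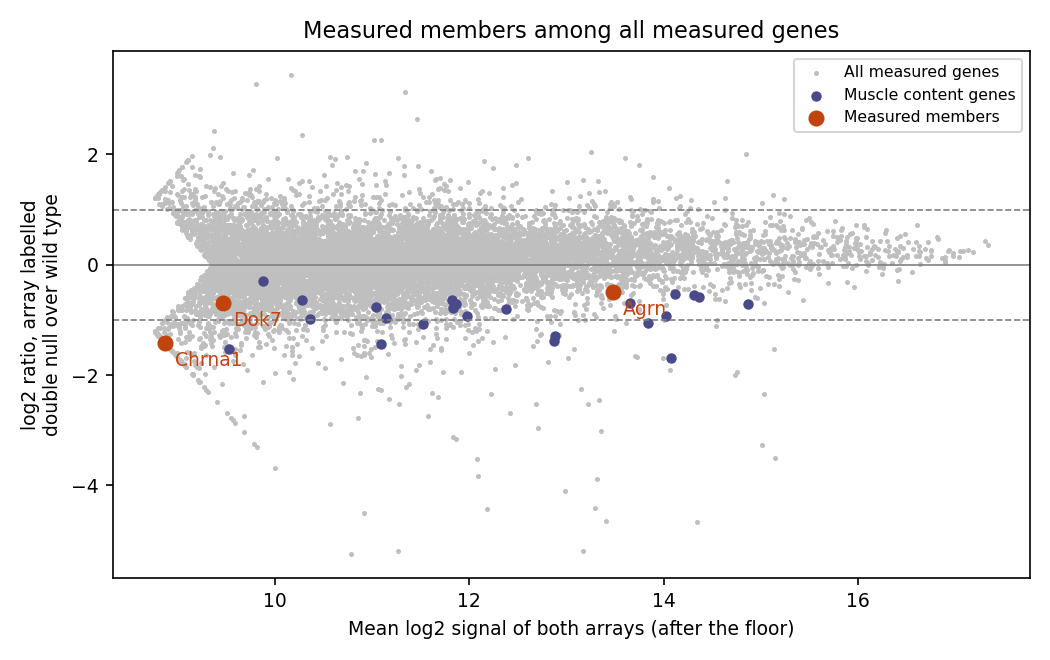
Log2 ratio of the array labelled double null over wild type against the mean log2 signal of both arrays after the floor, 1 point per measured gene. Chrna1, at -1.42, lies on the lower edge that the floor sets for dim genes, Dok7 at -0.70 and Agrn at -0.50 lie within the dashed 2-fold lines, and all muscle content genes lie below 0.

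The 3 measured members had a median log2 ratio of -0.70, against 0.07 for all 11238 measured genes, and all 3 were below 0, as were 43.7% of all measured genes. Measured members were few, and they were chosen through the brighter array, so this median describes those genes only. Chrna1 and Dok7 reached the measured level in wild type alone, so both entered the count through the array where they were higher. Muscle content genes, a list of contractile and other muscle fibre genes, were lower in the same comparison. Of the 24 listed, 23 were measured, all 23 were below 0 and 7 passed 2-fold downward, with a median of -0.81. The summed signal of the measured muscle genes was 148936 on the array labelled double null and 272002 on the wild-type array. The lowest ratios were those of Tnnc2, fast troponin C (-1.69), Des, desmin (-1.53), Tnni1, slow troponin I (-1.44), and Ckm, muscle creatine kinase (-1.39), and the highest was that of Neb, nebulin (-0.29).

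Set against that list, Dok7 lay 0.11 above the muscle median and Agrn 0.31 above it on the log2 scale, with 16 and 22 of the 23 muscle genes below them, and both gaps were under the SD of 0.51 between probe sets. The place of Chrna1 beside the muscle genes depends on the floor: its log2 ratio was -2.19 with no floor and -0.22 with the floor at the 60th percentile, against a muscle median of -0.81 in either case. How far the lower muscle signal accounts for the member ratios was not tested.

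Myf5 and Myod1 themselves differed little between the arrays. The brighter Myod1 probe set had 1663 on the array labelled double null and 1938 on the wild-type array, and the Myf5 probe set had 531 and 517 in the same order, under the measured level. Whether these probe sets lie in the removed parts is not known from the labels, so the array is called by its label throughout. Myog, myogenin, had 934 on the array labelled double null and 1857 on the wild-type array, a log2 ratio of -0.99.

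Markers of other cell types went both ways. All 9 measured neuron markers were above 0, with 4 at least 2-fold higher and a summed signal of 125622 on the array labelled double null and 59284 on the wild-type array, although the other measured probe set of Prph was at -0.99. Of 6 epithelial markers, 5 were below 0 and 2 passed 2-fold downward, with sums of 81569.9 and 106526 in the same order. Epcam, the 1 above 0 at 0.85, was at -1.42 by its other measured probe set. The other measured probe sets of Krt14, Krt4 and Krt13 were below 0 too. Of 4 measured Schwann cell markers 3 were above 0 and none passed 2-fold. Their sums were 30271 on the array labelled double null and 23416 on the wild-type array. Mbp, 1 of the 3 at 0.51, had 7 other measured probe sets with a median of -0.21 (-0.74 to 0.42). Bone and cartilage markers were split, with 2 of 5 below 0 and 1 past 2-fold downward. All 4 endothelial markers were below 0, with 2 past 2-fold, and all 4 macrophage markers, with 1 past 2-fold. Endothelial Pecam1 had 109 on the array labelled double null and 762 on the wild-type array, and macrophage C1qa 229 and 844 in that order. Both were under the floor on the former and measured through wild type alone, so they passed 2-fold by construction. The 1 measured erythroid marker was below 0 and within 2-fold. No marker had a signal of 0, but the erythroid marker Hba-a1 was under the floor on both arrays. The part of these cell types in the Agrn and Ache values was not tested.

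Other genes of the junction lay on both sides of 0. Of 31 listed, 28 had a probe set and 25 were measured, of which 10 were below 0 (40%) and 15 above (60%), with a median log2 ratio of 0.17. Of all measured genes 43.7% were below 0 and 56.3% above, close to that split. Of the 25, 1 passed 2-fold downward and 1 upward. These counts rest on the brightest probe set of each gene. Other measured probe sets lay below 0 for Utrn (-1.01, against 0.21), Cttn (-0.51 and -0.18, against 0.56) and Dvl1 (-0.25, against 0.05). Those of Crk, Macf1 and Prkar1a lay on both sides of 0. Those of Sntb1, Dtna, Apc and Ptpn11 (1.07, against 0.17) lay above 0, and those of Lama5 and Lama4 below. Lama5, the laminin alpha5 chain of the synaptic basal lamina and of many epithelia, had 1235 on the array labelled double null and 10728 on the wild-type array (-3.12), with -0.77 by its other measured probe set. Nrg1, neuregulin, a growth factor of nerve and other tissues, had 771 on the array labelled double null and 367 on the wild-type array (1.07), by 1 measured probe set.

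Lrp4 and Colq, singled out after their values were seen, were below the measured level. Lrp4, the agrin receptor, had 286 on the array labelled double null and 399 on the wild-type array, so that it was above the floor in wild type alone. Colq encodes the collagen tail that anchors acetylcholinesterase in the synaptic basal lamina. It had 432 on the array labelled double null and 239.8 on the wild-type array, above the floor on the former alone. Over all genes, 4.55% were above the floor in wild type alone and 4.78% on the array labelled double null alone.

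Neuronal nicotinic subunits, as the receptor family members outside the muscle receptor are called here, were mostly unmeasured too. Of 11 listed, 10 had a probe set and 1 was measured. This was Chrna7, the alpha7 subunit gene, with 1939 on the array labelled double null and 887 on the wild-type array, 2.19-fold higher. No other Chrna7 probe set was measured, and these arrays do not show which cells gave the signal. The genes for acetylcholine synthesis and transport in nerve endings, Chat, Slc18a3 and Slc5a7, were under the floor on both arrays. The cell bodies of motor neurons lie outside the palate, and whether that bears on the signals of these genes was not tested.

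All 5 protein glycosylation genes whose loss causes congenital myasthenia in people were measured and within 2-fold, with a median log2 ratio of 0.09. The largest ratio was 0.50 for Alg2, a mannosyltransferase, and the next was 0.12 for Dpagt1, which starts N-glycan assembly. None of the 5 was below 0 by its brightest probe set, and the lowest was Alg14 at 0.01. The other measured probe sets of Alg14 (-0.07) and Gfpt1 (-0.01) were below 0. Of all measured genes, 56.3% were above 0.

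**Figure D3:**
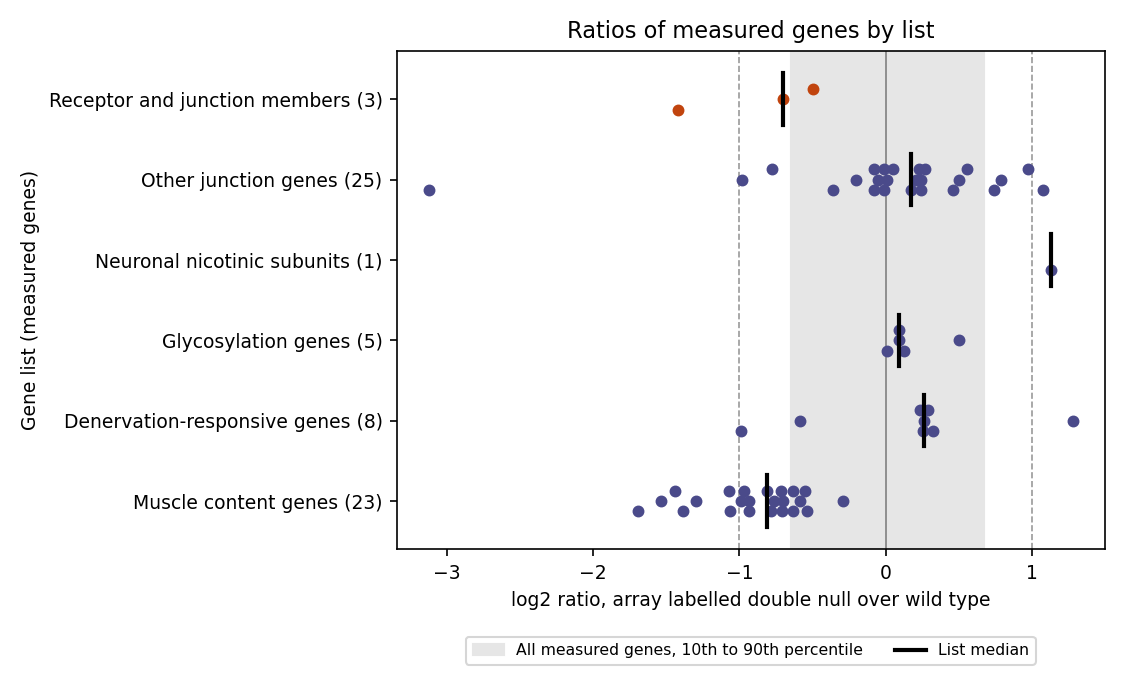
Log2 ratio of the array labelled double null over wild type for the measured genes of each list, 1 point per gene, with the list median as a black bar and the number measured in brackets. The grey band runs from the 10th to the 90th percentile of all measured genes; the 3 members and the muscle content genes lie below 0, and the other junction genes lie on both sides.

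**Figure D4:**
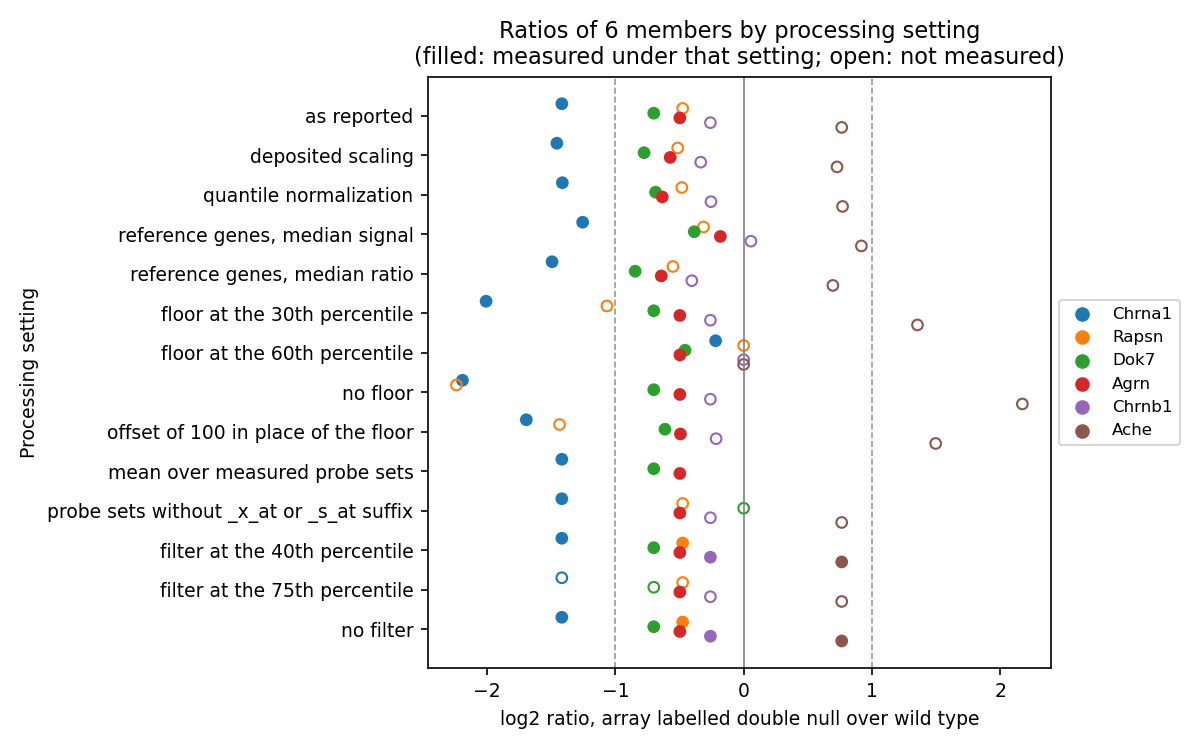
Log2 ratio of the array labelled double null over wild type for 6 of the genes under each processing setting, with filled points where the gene counted as measured and open points where it did not. Chrna1 runs from -2.19 without a floor to -0.22 with the floor at the 60th percentile, whereas Agrn stays between -0.64 and -0.18.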

How the data were processed

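The deposited values were linear intensity signals. The authors made them with MAS5, according to the submitters' processing notes. Its version and a genome build are not given in the sources used here. Biotin-labelled cRNA was made from 6 µg total RNA per sample, per the labels' protocols. The trimmed mean without the outer 2% of probe sets was 1500.01 on both deposited arrays. The 64 control probe sets were left out of 45101.

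The arrays were brought to the same median over probe sets in the upper part (50th percentile and above) of both, with factors of 1.03 for the array labelled double null and 0.974 for wild type. The floor, measured level, bounds and 2-fold rule are as given with the results. The probe set brightest by mean log2 signal stood for its gene. The SD between probe sets of a gene came from 10190 measured probe sets of 4030 genes and covers no differences between animals. The number of arrays limits precision. Named genes were all 10 members, the targeted genes, genes past 2-fold or with the largest ratios in the other lists, and the 4 lowest and the highest muscle content genes; Lrp4, Colq and the cholinergic genes were named after their values were seen. Members and lists were chosen with earlier results of these data known. Gene names came from the platform annotation. Alternatives were other scalings, floors, an added offset, probe set rules, filters and fold rules. Steps were tested on simulated data with changes placed in bright genes alone, so genes as dim as Chrna1 and Dok7 were not covered. Python 3.11.15, numpy 2.4.6, pandas 2.3.3 and matplotlib 3.10.9 were used.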

Additional observations from a re-analysis of the deposited data

How the results depend on the processing

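The count of 1 member at least 2-fold lower was the same in 11 of 15 alternatives. It was 0 with the floor at the 60th percentile, where the Chrna1 bound shrank to -0.22, and 0 with the filter at the 75th percentile, where Agrn alone was measured. It was 2 with a 1.5-fold rule, by Chrna1 and Dok7, and 0 with a 3-fold rule. No member that counted as measured was at least 2-fold higher in any of the 15, but Ache, then below the measured level, had log2 ratios from 1.36 (floor at the 30th percentile) to 2.17 with no floor, with the offset in between, and Rapsn from -1.07 to -2.24 likewise. With no floor Chrnd was at 1.16 and Chrne at -1.07, both from signals under the floor used here. The median of the measured members stayed below 0 in all 13 alternatives that give one (-0.96 to -0.13); it was -0.13 with no filter, where genes set to the floor on both arrays enter at 0. The median of the other pathway genes (junction, neuronal nicotinic and glycosylation lists together) was 0.12 and ran from -0.02 to 0.44. Scaling to reference genes by their median signal moved the median of all genes by 0.33, and relative to the median of all genes Chrna1 was then at -1.65, Dok7 at -0.78 and Agrn at -0.58; scaling on their median ratio moved it by -0.15. Of all genes past 2-fold 54.6% were lower, against 65.0% with the deposited scaling, 16.7% with the median signal and 74.5% with the median ratio of the reference genes. No paired analysis was possible because there was 1 array per genotype, and no array could be left out.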

Other observations

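Genes known to respond in muscle to loss of nerve activity, with the members left out, were mostly within 2-fold; the list holds Hdac9, which is known to fall rather than rise. Of 10 listed, 8 were measured, 6 were above 0 and 2 below, with a median log2 ratio of 0.26. Of all measured genes, 56.3% were above 0. Runx1, counted above 0 at 0.26, had 3 other measured probe sets that ran from -1.32 to 0.97. Gadd45a, a growth arrest gene, was 2.42-fold higher, with 2561 on the array labelled double null and 1056 on the wild-type array. The measured genes below 0 were Myog at -0.99 and Myh3, embryonic myosin heavy chain, at -0.58, which also belong to the muscle content list. Ncam1, a cell adhesion gene also expressed by nerve, had a log2 ratio of 0.23.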
